A study of Homo sapiens with 2 samples.

Results

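The ubiquitin ligase genes SIAH1, SIAH2, FBXW7, SKP2, NEURL1, NEURL1B, BTRC, ITCH and NEDD4L were examined for peaks of RUNX2 and of MTA1. They are 9 of 20033 protein-coding genes on the nuclear chromosomes, and they were chosen by name. SIAH2, FBXW7 and NEURL1 are genes that the study tested as targets of RUNX2, MTA1 and the ubiquitin ligase protein CUL4B, and the other 6 are related ligases. By qChIP, which is PCR on immunoprecipitated chromatin, the study reported enrichment at the promoters of SIAH2, FBXW7 and NEURL1. CUL4B has no peak list here. The window of a gene was its RefSeq span on GRCh38 with 20 kb on either side. The study profiled RUNX2, a runt domain transcription factor, and MTA1, part of NuRD (a complex that remodels and deacetylates chromatin), in the established triple-negative breast cancer line MDA-MB-231. The cells of both groups were untreated and unmodified as far as the labels state, and the groups differ only in the antibody. CUT&Tag, in which an antibody directs a transposase to chromatin, was used with 1 library for each antibody, so no value has a replicate and no p-value was computed. The supplier given for each antibody in the labels is not the one in the methods of the study, and the library steps in the labels (adaptor ligation, gel selection) are those of ordinary ChIP-seq, so antibody product and library preparation are uncertain.

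Ubiquitin ligases choose the proteins that are tagged with ubiquitin, often for degradation by the proteasome. SIAH1 and SIAH2 are RING ligases that bind their substrates themselves, whereas FBXW7, BTRC and SKP2 are F-box proteins that bring substrates to the SCF complex, built on SKP1, CUL1 and RBX1. NEURL1 and NEURL1B belong to the Neuralized family, which acts on ligands of Notch, and ITCH and NEDD4L are HECT ligases of the NEDD4 family. In cancer FBXW7 is best known as a tumor suppressor that removes cyclin E, MYC and Notch, and SKP2 as the receptor that removes the cell cycle inhibitor p27.

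On the nuclear chromosomes there were 61700 peaks in the RUNX2 list and 42683 in that of MTA1. Read depth is unknown, and no control library was analysed here. Each peak carries a score given by the authors, on a scale that is not stated. It was used here only as a score rank, which is the percentage of peaks of the same list with a lower score. Overlap means at least 1 shared base. As a check of the cell label, CDKN2A, which MDA-MB-231 has lost, had 0 RUNX2 and 0 MTA1 peaks inside it and in its window, whereas ACTB had 2 and 1 inside. Only 84.4% of all protein-coding genes had a RUNX2 peak in such a window and 79.7% an MTA1 peak. An empty window at 1 gene therefore cannot establish the line. Shares carry exact (Clopper-Pearson) 95% intervals, which cover counting error over peaks only.

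The sequences that the start sites turn on are shown first. RefSeq lists 16 starts for 8 of the 9 genes in the promoter table, numbered here along transcription within each gene. In the 300 bases at each start (250 before it and 50 after it), a RUNX2 peak was found at 8 starts and an MTA1 peak at 7, and all 7 were shared. The other 8 starts had neither. Over 22198 starts of protein-coding genes, 37.5% carried RUNX2, 40.7% carried MTA1 and 33.6% carried both. The 250 bases before each start with a peak are printed 5′ to 3′ on the strand of the gene, from RefSeq on GRCh38.p14. Capitals mark a RUNX hexamer (TGTGGT or TGCGGT, on either strand) and, at the FBXW7 start numbered 4, a match to a primer of the study.
SIAH2, chr3:150763170-150763419 (−): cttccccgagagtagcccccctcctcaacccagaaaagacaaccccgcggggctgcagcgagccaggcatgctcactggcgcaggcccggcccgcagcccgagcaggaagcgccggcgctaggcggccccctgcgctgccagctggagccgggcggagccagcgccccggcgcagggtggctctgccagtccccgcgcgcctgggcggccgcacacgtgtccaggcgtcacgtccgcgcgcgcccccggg
SIAH1 start 2, chr16:48365888-48366137 (−): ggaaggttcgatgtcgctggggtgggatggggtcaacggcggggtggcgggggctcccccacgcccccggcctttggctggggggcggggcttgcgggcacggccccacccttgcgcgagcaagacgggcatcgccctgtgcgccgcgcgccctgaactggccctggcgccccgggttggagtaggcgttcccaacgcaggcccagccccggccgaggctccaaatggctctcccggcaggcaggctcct
SIAH1 start 1, chr16:48385414-48385663 (−): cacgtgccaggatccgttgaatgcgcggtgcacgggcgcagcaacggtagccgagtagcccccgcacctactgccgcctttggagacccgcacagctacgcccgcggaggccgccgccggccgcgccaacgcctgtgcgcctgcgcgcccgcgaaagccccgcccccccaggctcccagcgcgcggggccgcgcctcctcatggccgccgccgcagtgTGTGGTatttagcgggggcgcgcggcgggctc
FBXW7 start 1, chr4:152536093-152536342 (−): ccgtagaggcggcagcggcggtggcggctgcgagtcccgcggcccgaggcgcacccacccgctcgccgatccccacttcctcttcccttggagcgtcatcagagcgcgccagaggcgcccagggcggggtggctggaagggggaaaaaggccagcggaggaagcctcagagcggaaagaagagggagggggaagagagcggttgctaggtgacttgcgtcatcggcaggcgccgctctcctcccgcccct
FBXW7 start 4, chr4:152352827-152353076 (−): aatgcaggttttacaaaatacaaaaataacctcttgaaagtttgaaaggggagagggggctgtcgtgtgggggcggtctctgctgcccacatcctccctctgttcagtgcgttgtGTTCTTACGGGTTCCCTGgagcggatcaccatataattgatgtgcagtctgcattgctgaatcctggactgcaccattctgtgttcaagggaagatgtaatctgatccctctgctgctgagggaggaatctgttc
SKP2, chr5:36151861-36152110 (+): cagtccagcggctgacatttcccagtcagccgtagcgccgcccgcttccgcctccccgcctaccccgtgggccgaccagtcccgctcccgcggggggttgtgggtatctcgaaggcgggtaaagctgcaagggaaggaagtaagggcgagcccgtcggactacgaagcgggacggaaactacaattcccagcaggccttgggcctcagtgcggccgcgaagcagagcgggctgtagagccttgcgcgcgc
ITCH, chr20:34363023-34363272 (+): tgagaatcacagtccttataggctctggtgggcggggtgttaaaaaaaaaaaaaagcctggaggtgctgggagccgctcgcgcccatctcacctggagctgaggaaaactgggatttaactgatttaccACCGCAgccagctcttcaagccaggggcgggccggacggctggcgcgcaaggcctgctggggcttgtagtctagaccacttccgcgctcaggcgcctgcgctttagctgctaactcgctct
NEDD4L start 4, chr18:58221321-58221570 (+): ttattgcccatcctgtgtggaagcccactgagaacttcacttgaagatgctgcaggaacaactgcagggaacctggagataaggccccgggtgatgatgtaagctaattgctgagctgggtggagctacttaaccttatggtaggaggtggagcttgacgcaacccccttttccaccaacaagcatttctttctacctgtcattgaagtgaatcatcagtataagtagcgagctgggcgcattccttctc

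TGTGGT occurs in 11.0% and TGCGGT in 5.84% of all 35116 promoter windows of this length, and 16.3% hold at least 1 of them. The hexamers do not overlap in these windows. Of the 7 windows with peaks of both lists, 1 (ITCH) holds a hexamer, and of the other 9 windows 3 do. In ITCH the hexamer is read on the opposite strand, begins 121 bases before the start and lies inside the MTA1 peak, 16 bp outside the RUNX2 peak. At start 1 of SIAH1 it begins 32 bases before the start and lies inside the RUNX2 peak, while the nearest MTA1 peak is 19369 bp away. The other matches are at starts 3 and 5 of NEDD4L, which have no peak. G and C made up 49.2% to 77.2% of the windows with both peaks (median 67.6%) and 34.4% to 78.4% of the other windows (median 50.8%), beside a median of 58.0% over all windows. A GC-rich window was no guarantee of a peak: the window of NEURL1B has 78.4% and that of start 2 of FBXW7 has 77.2%, and neither held one.

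The study designed qChIP primers for these 3 targets. Their sequences are shown, but most could not be placed in the windows searched here.
SIAH2 sense: gttggctcaagcaaagtc
SIAH2 antisense: cgtaggttgggtcgt
FBXW7 sense: cggtaggatgacagtgaa
FBXW7 antisense: cagggaacccgtaagaac
NEURL1 sense: ggggaaccttggaacatc
NEURL1 antisense: gcagcctatggcagtcaa

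Of these 6 primers, 1 matched a promoter window, and it matched 1 window of 35116: the antisense primer of FBXW7 lies at chr4:152352944-152352961, before start 4 of FBXW7. The match is inside the RUNX2 peak there and 11 bp from the edge of the MTA1 peak. The position of the other 5 was not found in these windows, which cover 300 bases per start.

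SIAH2, a RING ligase and a study target, had 2 RUNX2 and 3 MTA1 peaks in its window of 62.0 kb. At its start on chromosome 3 a RUNX2 peak (chr3:150763073-150763688, score 10.1, score rank 68.7%) covered an MTA1 peak (chr3:150763170-150763637, score 14.7, score rank 79.1%). These were the strongest peaks of SIAH2 in both lists, and they covered the whole 250 bases printed above. The MTA1 peak begins 1 base past the annotated end of the gene, so no MTA1 peak lies inside SIAH2. The other RUNX2 peak, beyond the far end of the gene, had a rank of 29.3%, and the other MTA1 peaks, 12.2 kb before the start and beyond the far end, had ranks of 49.2% and 30.5%. None of these overlapped a peak of the other list. Of all protein-coding genes, 42.5% have no RUNX2 peak or a strongest one of lower rank than that of SIAH2, and 55.1% have no MTA1 peak or a strongest one of lower rank, so SIAH2 lies near the middle of the genes in both lists.

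SIAH1, its paralog, had 3 RUNX2 peaks and 1 MTA1 peak in 66.7 kb. The single MTA1 peak (chr16:48365822-48366071, score 15.7, rank 81.2%) lies at start 2, 21.4 kb into the gene, and overlaps the strongest RUNX2 peak of the gene (chr16:48365890-48366074, score 16.9, rank 83.6%). Start 1 carried only a RUNX2 peak (chr16:48385366-48385493, score 13.6, rank 78.3%). SIAH1 was thus marked by both lists at its inner start and by RUNX2 alone at its outer start. The remaining RUNX2 peak lies 38.6 kb from the first end, within LONP2, and ranks at 29.3%.

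FBXW7 had 7 RUNX2 and 5 MTA1 peaks in 256.0 kb, and each of the 5 MTA1 peaks had a RUNX2 partner. RefSeq lists 4 starts for the gene on chromosome 4. At start 1 the pair was chr4:152536065-152536501 for RUNX2 (score 9.49, rank 66.7%) and chr4:152536057-152536416 for MTA1 (score 18.5, rank 85.7%). At start 4, 183 kb further in, it was chr4:152352711-152352992 for RUNX2 (score 14.2, rank 79.3%) and chr4:152352786-152352933 for MTA1 (score 7.54, rank 49.2%). The order of the ranks was therefore opposite at these starts: MTA1 was higher at the outer one and RUNX2 at the inner one, where the primer of the study lies. Start 2, 0.851 kb from start 1, had its nearest peaks 0.824 kb (RUNX2) and 0.816 kb (MTA1) away, and start 3 had them 29.5 kb (RUNX2) and 29.6 kb (MTA1) away.

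The strongest RUNX2 peak of FBXW7 does not lie at a start. It is at chr4:152310216-152310655 (score 61.8, rank 99.4%), beyond the far end of the gene inside the noncoding gene LOC105377492, and it overlaps an MTA1 peak of rank 30.5%. A pair 50.2 kb into the gene, at chr4:152485817-152486063 for RUNX2, ranked at 91.4% and 74.1%. The other pair in the gene was weak in both lists (6.85% and 24.4%). The RUNX2 peaks that stood alone, 20.2 kb and 19.8 kb into the gene, ranked at 62.5% and 6.85%.

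BTRC, the F-box protein that recognises phosphorylated β-catenin and IκB, had 4 RUNX2 and 5 MTA1 peaks in 243.0 kb, of which 3 of each were paired. BTRC has no entry in the promoter table. The strongest pair lies at its lower-coordinate end on chromosome 10, at chr10:101353723-101354191 for RUNX2 (score 70.8, rank 99.8%) and chr10:101353723-101354170 for MTA1 (score 55.9, rank 99.6%). Both peaks begin at the same base, and both are among the highest of their lists. A pair 13.8 kb into the gene ranked at 97.6% for RUNX2 and 73.8% for MTA1, and a pair 88.4 kb in at 29.3% and 62.2%. The peaks without a partner ranked at 69.1% (RUNX2), 46.6% and 29.7% (MTA1).

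SKP2 had 1 RUNX2 and 1 MTA1 peak in 81.4 kb, and they were a pair over its start. They were chr5:36151875-36152183 for RUNX2 (score 25.0, rank 91.2%) and chr5:36151867-36152182 for MTA1 (score 59.5, rank 99.7%). The pair also touches the annotated span of the neighbouring gene LMBRD2, so it cannot be told apart which gene it belongs to. SKP2 had the fewest peaks per 100 kb of the 9 genes, 1.23 in each list.

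NEURL1 had 6 RUNX2 and 5 MTA1 peaks in 139.0 kb, with 3 pairs. The strongest pair was 10.8 kb into the gene, at chr10:103504204-103504763 for RUNX2 (score 70.3, rank 99.7%) and chr10:103504230-103504729 for MTA1 (score 35.7, rank 97.2%), where the antisense gene NEURL1-AS1 is also annotated. The study reported qChIP enrichment at the NEURL1 promoter, with primers that could not be placed here. No peak lay over the 300 bases at the start of NEURL1, and the nearest were 1.43 kb (RUNX2) and 1.51 kb (MTA1) away. That nearest pair, centred 1.6 kb before the start, ranked at 74.6% and 27.2%. The remaining pair, 14.4 kb before the start, where the RUNX2 peak touches CALHM3, ranked at 81.2% and 41.9%. The 5 peaks outside pairs ranked at 15.3% to 50.1% for RUNX2 and at 1.34% and 9.26% for MTA1, the last 2 inside SH3PXD2A.

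NEURL1B had 7 RUNX2 and 6 MTA1 peaks in 90.3 kb, the highest number per 100 kb of the 9 genes in both lists (7.75 and 6.65). Most were weak. The strongest were a pair 18.8 kb into the gene, at chr5:172659979-172660160 for RUNX2 (score 15.2, rank 81.1%) and chr5:172660015-172660487 for MTA1 (score 12.2, rank 72.5%). The same MTA1 peak overlapped another RUNX2 peak of rank 22.4%. The other 5 RUNX2 peaks ranked at 6.85% to 39.9% and the other 5 MTA1 peaks at 0.405% to 39.1%. No RUNX2 peak was within 3 kb of an end of NEURL1B, and MTA1 peaks of rank 13.5% and 0.405% lay just inside the start.

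ITCH, a HECT ligase known from the control of immune signalling, had 7 RUNX2 and 8 MTA1 peaks in 189.0 kb, with 6 pairs. At its start on chromosome 20 the RUNX2 peak (chr20:34363173-34363318, score 11.1) ranked at 72.3% and the MTA1 peak (chr20:34363113-34363360, score 15.4) at 80.6%. Pairs at 27.7 kb and 37.7 kb into the gene ranked at 82.0% and 81.8%, and at 75.5% and 71.4%, for RUNX2 and MTA1 in that order. In these the lists differed little in rank. The strongest peaks of the window, at chr20:34525792-34526280 for RUNX2 (score 28.3, rank 93.2%) and chr20:34525780-34526291 for MTA1 (score 65.3, rank 99.9%), lie 163 kb from the start of ITCH, inside the dynein light chain gene DYNLRB1. Inside or at the start of ITCH itself, no peak of either list reached the highest 10% of its list.

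NEDD4L, a HECT ligase known for removing the epithelial sodium channel, had 22 RUNX2 and 18 MTA1 peaks in 397.0 kb, with 12 pairs. It is the longest of the 9 genes at 357.0 kb, and per 100 kb it had 5.54 RUNX2 and 4.53 MTA1 peaks. Of its 5 starts only start 4, 177 kb into the gene, had peaks (chr18:58221348-58221557 for RUNX2, score 6.49, rank 48.4%; chr18:58221222-58221570 for MTA1, score 7.53, rank 49.1%). Start 1, which lies 3.0 kb into the gene, had its nearest RUNX2 peak 33.7 kb away and its nearest MTA1 peak 3.42 kb away. That MTA1 peak, of rank 13.5%, is centred 0.5 kb before the first end of the gene. The strongest RUNX2 peak of NEDD4L (chr18:58213506-58213801, score 60.8, rank 99.4%) overlapped an MTA1 peak of score 4.11 and rank 6.73%, a difference of 92.7 percentage points. A further RUNX2 peak, 174 kb into the gene, ranked at 91.1% and had no MTA1 peak. The strongest MTA1 peak (chr18:58241965-58242219, score 17.1) ranked at 83.5%, over a RUNX2 peak of rank 69.1%.

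**Figure D1:**
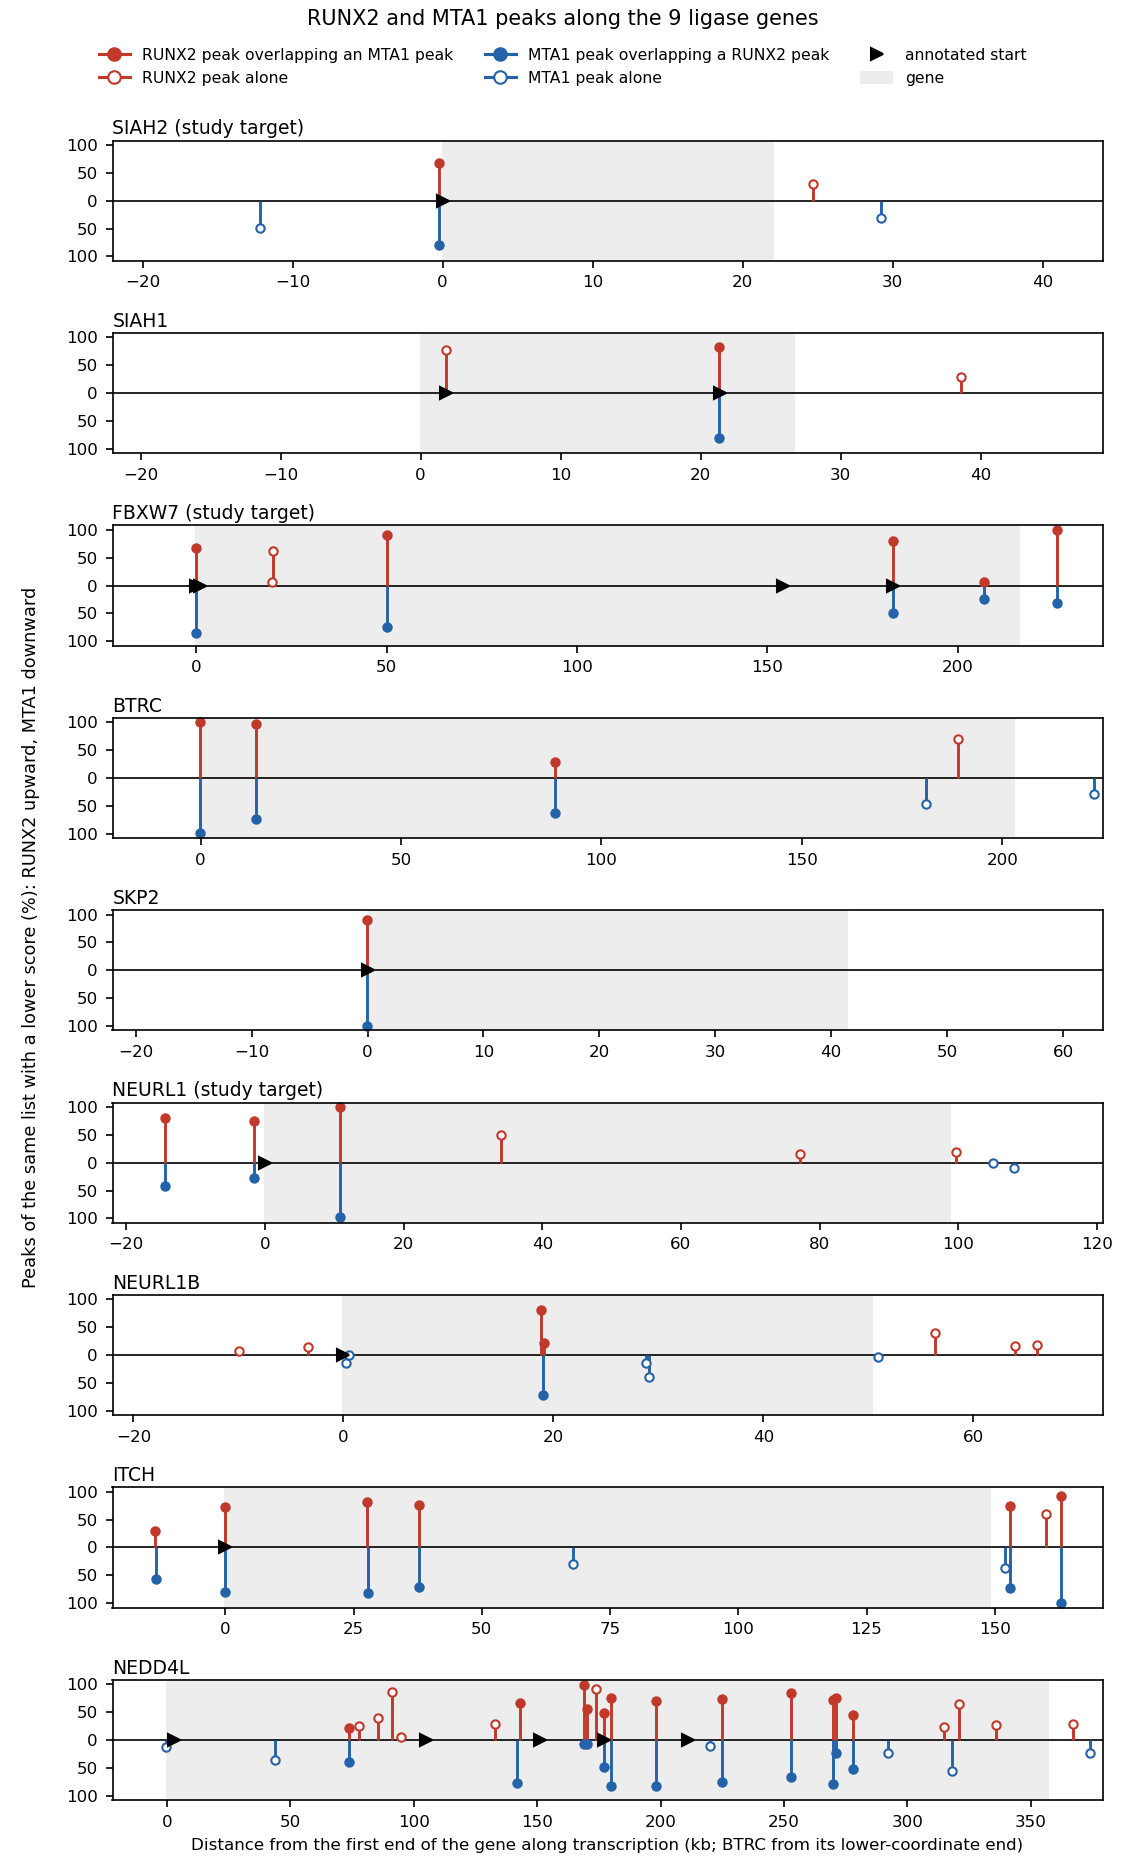
RUNX2 peaks (red, upward) and MTA1 peaks (blue, downward) along each gene and 20 kb on either side. The x axis is the distance in kb from the first end of the gene along transcription (for BTRC from its lower-coordinate end), the height is the score rank in %, filled points overlap a peak of the other list, open points do not, grey is the gene and triangles are annotated starts. SKP2 has a single pair at its start, whereas NEDD4L has 22 RUNX2 and 18 MTA1 peaks spread over its length.

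Across the 9 genes there were 59 RUNX2 peaks, 43 of them inside a gene, and 52 MTA1 peaks, 36 of them inside. Every gene had a peak of each list and at least 1 pair in its window. This is common: 84.4% of all protein-coding genes had a RUNX2 peak in such a window, 79.7% an MTA1 peak and 71.0% an overlapping pair. Peaks of both lists within 3 kb of a gene end were found in 6 of the 9 genes (SIAH2, FBXW7, SKP2, NEURL1, BTRC and ITCH), beside 51.9% of all genes. SIAH1 lacked an MTA1 peak at its ends, and NEURL1B and NEDD4L lacked a RUNX2 peak there.

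A peak in the highest 10% of its list was found for RUNX2 in 6 of the 9 genes (FBXW7, SKP2, NEURL1, BTRC, ITCH and NEDD4L), beside 27.3% of all genes. For MTA1 it was found in 4 (SKP2, NEURL1, BTRC and ITCH), beside 28.1%. The same 4 genes had such peaks in both lists, beside 16.9% of all genes. The windows of FBXW7, BTRC, ITCH and NEDD4L are 189.0 to 397.0 kb long, whereas the median window is 64.1 kb, and a longer window holds more peaks. In ITCH the peaks that count here are those inside DYNLRB1, and in SKP2 they are the pair that touches LMBRD2, without which SKP2 has 0 peaks of either list.

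**Figure D2:**
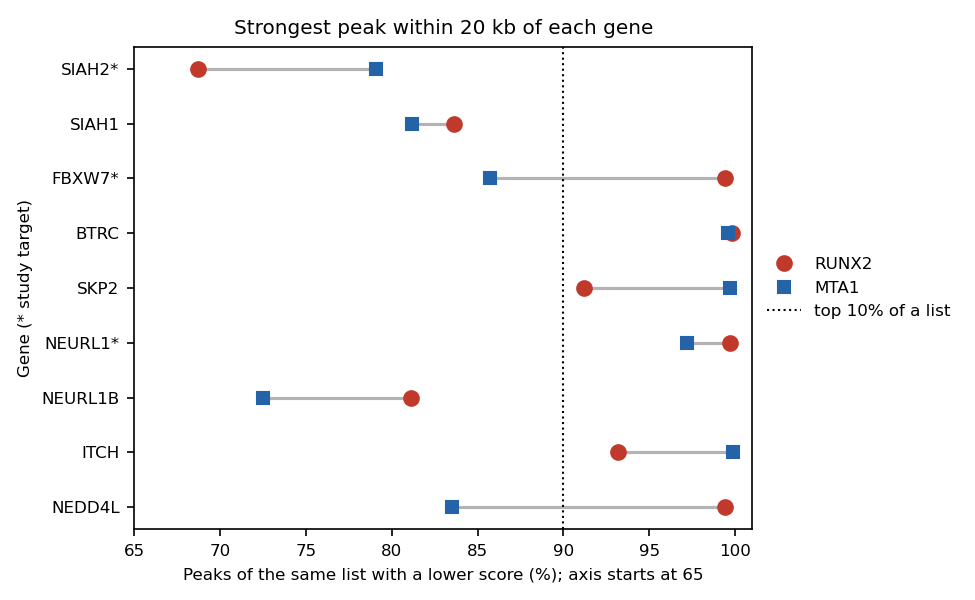
The strongest RUNX2 peak (red circle) and MTA1 peak (blue square) in the window of each gene, by score rank (% of peaks of the same list with a lower score, axis from 65). The dotted line marks the highest 10% of a list; SKP2, NEURL1, BTRC and ITCH are past it in both lists, FBXW7 and NEDD4L in RUNX2 only, and SIAH1, SIAH2 and NEURL1B in neither.

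Counted per length, RUNX2 peaks ran from 1.23 (SKP2) to 7.75 (NEURL1B) per 100 kb with a median of 3.71, and the median of all protein-coding genes was 3.57. MTA1 peaks ran from 1.23 (SKP2) to 6.65 (NEURL1B) with a median of 3.6, beside 2.48. No member was in the densest 10% of genes, which begins at 9.59 for RUNX2 and 8.42 for MTA1. SIAH2, BTRC and ITCH each had 1 MTA1 peak more than RUNX2 peaks, SKP2 had 1 of each, and the other 5 genes had more RUNX2 peaks. The RUNX2 list as a whole is the longer one.

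**Figure D3:**
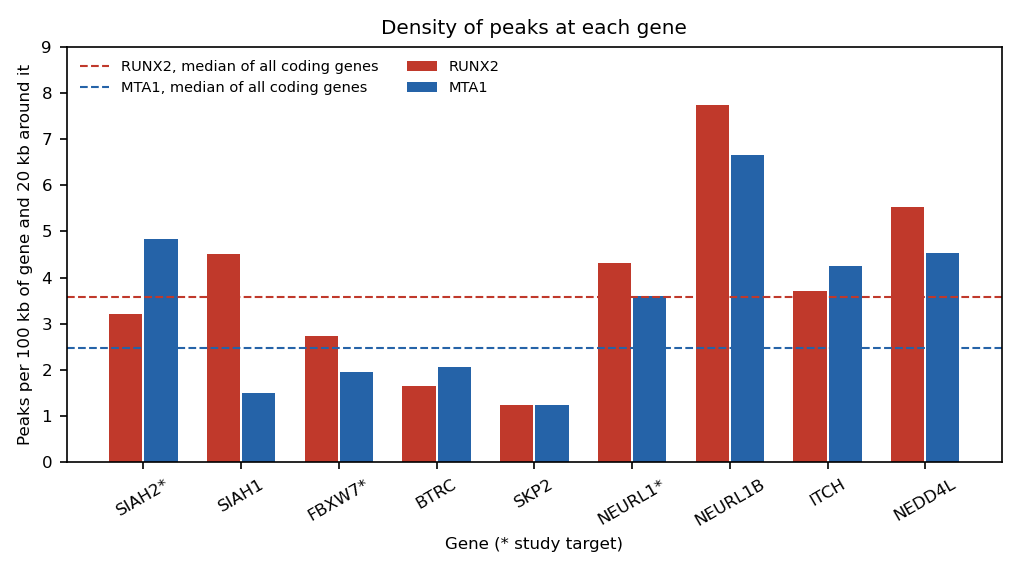
RUNX2 peaks (red bars) and MTA1 peaks (blue bars) per 100 kb of gene and 20 kb on either side, for each of the 9 genes, with 1 library per antibody and no error bar. Dashed lines are the medians of all protein-coding genes, 3.57 for RUNX2 and 2.48 for MTA1; NEURL1B is highest and SKP2 lowest in both lists.

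Of the 59 RUNX2 peaks 34 overlapped an MTA1 peak, which was 57.6% (44.1% to 70.4%), beside 45.4% of the whole list. Among the 52 MTA1 peaks, 33 had a RUNX2 partner, or 63.5% (49.0% to 76.4%), beside 65.5%. Both intervals contain the share of the whole list. Overlapping peaks had higher ranks, with medians of 74.8% for RUNX2 and 73.6% for MTA1, than peaks without a partner, with medians of 29.3% and 24.4%. The same medians were not computed over the whole lists, so it is not known whether this difference is particular to these genes. The narrowest width that a list holds (99 bp for RUNX2, 116 bp for MTA1) was seen in 16 of the RUNX2 peaks (27.1%) and 11 of the MTA1 peaks (21.2%). In the whole lists it was seen in 31.7% and 26.0%.

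The peaks formed 34 overlapping pairs. RUNX2 had the higher rank in 17 of them and MTA1 in the other 17. The widest gaps were 92.7 percentage points in NEDD4L and 68.9 in FBXW7, both with RUNX2 higher and both away from starts. Of the 7 pairs over an annotated start, MTA1 had the higher rank in SIAH2, SKP2, ITCH, NEDD4L and start 1 of FBXW7, and RUNX2 in SIAH1 and start 4 of FBXW7. The ranks were close in NEDD4L (48.4% for RUNX2, 49.1% for MTA1) and in SIAH1 (83.6% and 81.2%). Which list ranked higher was not counted over all overlapping pairs, so these counts have no background. Without NEDD4L, which gives 12 of the pairs, RUNX2 was higher in 13 and MTA1 in 9.

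**Figure D4:**
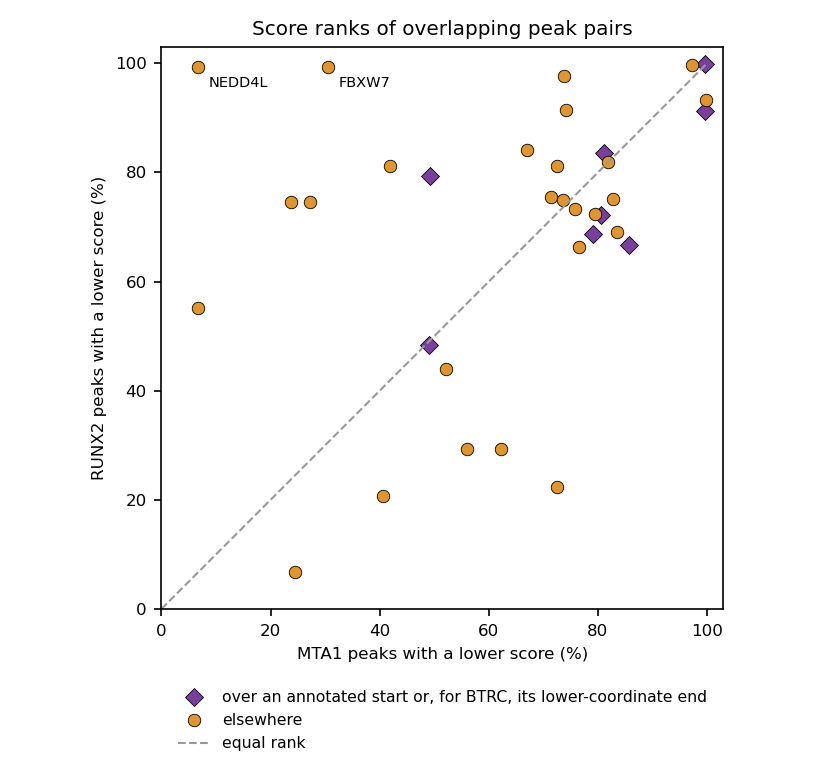
Score ranks of the 34 overlapping pairs, with the MTA1 peak on the x axis and the RUNX2 peak on the y axis (% of peaks of the same list with a lower score). Diamonds are pairs over an annotated start or the lower-coordinate end of BTRC, circles are pairs elsewhere, and the dashed line is equal rank. The pairs farthest above the line are in NEDD4L and FBXW7, away from their starts.

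The 3 study targets were set beside the 6 relatives without a test, since peaks and genes are not replicates. The targets had 15 RUNX2 peaks, of which 9 were shared (60.0%, interval 32.3% to 83.7%), and 13 MTA1 peaks, of which 9 were shared (69.2%, 38.6% to 90.9%). The relatives had 44 RUNX2 peaks with 25 shared (56.8%, 41.0% to 71.7%) and 39 MTA1 peaks with 24 shared (61.5%, 44.6% to 76.6%). The intervals of targets and relatives overlap, but they cover counting error over peaks only and not the spread between genes. NEDD4L alone gives 22 of the 44 RUNX2 peaks of the relatives. The median number of peaks per 100 kb was 3.22 (RUNX2) and 3.6 (MTA1) in the targets, and 4.11 and 3.15 in the relatives. All 3 targets, and 3 of the 6 relatives, had peaks of both lists at a gene end, beside 51.9% of all genes. Gene ends leave out inner starts, and the relatives SIAH1 and NEDD4L had peaks of both lists at such a start. With annotated starts in place of gene ends, 7 of the 9 members had both lists within 3 kb, although BTRC has no listed start and could not count. Peaks of the highest 10% in both lists were found in 1 target (NEURL1) and in 3 relatives (SKP2, BTRC and ITCH), beside 16.9% of all genes.

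Other genes of these ligase systems were counted in the same way. Of 28 such genes, 28 had a RUNX2 peak in the window, 26 an MTA1 peak, 24 a pair and 16 peaks of both lists at a gene end. Among all protein-coding genes, 84.4% had a RUNX2 peak in such a window, 79.7% an MTA1 peak and 71.0% a pair. Peaks of both lists at a gene end were found in 51.9% of all genes. Such features are therefore common, and neither the 28 genes nor their groups were tested against these shares. SIAH3, the remaining SIAH gene, had 1 RUNX2 peak of rank 6.85% and no MTA1 peak, and FBXW12 also lacked an MTA1 peak. All 5 genes of the SCF core (SKP1, CUL1, RBX1, CKS1B and CKS2) had a pair and peaks of both lists at an end. Of the 8 relatives of FBXW7, 5 had a pair and 5 had both lists at an end, but these were not all the same genes: FBXW4 had both lists at an end without a pair, and FBXW9 had a pair without RUNX2 at an end. The 5 Neuralized and mind bomb genes all had a pair, and 3 had both lists at an end. The 9 genes of the NEDD4 family and its adaptors all had a pair, 3 had both lists at an end, and together they held 61 RUNX2 and 53 MTA1 peaks. Their windows run from 85.7 kb (NDFIP1) to 493 kb (HECW1), all longer than the median window of 64.1 kb, and a longer window holds more peaks.

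Peaks of the highest 10% in both lists were found in 6 of these 28 genes, beside 16.9% of all protein-coding genes. The windows of WWP1, SMURF2 and HECW2 are 166, 160 and 439 kb long, against a median window of 64.1 kb. Those of CKS1B, CKS2 and NEURL4 are shorter than that median. CKS2, a small CDK-binding protein, had MTA1 at 99.8% at its own end (chr9:89310712-89311189), and its RUNX2 peak of 99.3% lies in SECISBP2. For CKS1B, the cofactor with which SKP2 binds p27, the peaks of 94.7% (RUNX2) and 96.8% (MTA1) lie in the neighbours SHC1 and FLAD1. The peaks of NEURL4 at 92.7% and 96.7% lie in EIF5A. WWP1, a HECT ligase, had a pair at its own end with a RUNX2 score of 32.7 and an MTA1 score of 34.1. SMURF2, which acts on the TGF-β pathway, had a pair of 98.2% and 97.4% that is 17.7 kb from its nearest end, and HECW2 had separate peaks of 90.3% and 93.5%.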

How the data were processed

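The authors deposited 1 peak list per antibody with the position and a score of each peak; the score scale, the calling threshold and any control are not given in the sources used here, so the score was used only for ranks within a list. The submitters' processing notes name CASAVA 1.4, Bowtie 0.12.8, MACS, MACS2 and hg19, without a role for each. Positions nevertheless fit GRCh38: 12.6% of RUNX2 and 19.0% of MTA1 peaks lay over RefSeq GRCh38.p14 promoter windows of 300 bases, against 0.768% and 0.825% after a move of 100000 bp, with a higher share unmoved on 22 of 22 chromosomes. Gene spans came from the same RefSeq annotation, and their coordinates are not printed. Peak positions are 1-based and as deposited.

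Samples were grouped by the antibody in the labels. Peaks overlapping a gene or the 20 kb around it were counted, and peaks sharing at least 1 bp were paired. Each list stops at its own threshold, so a gene without a peak may still carry signal below it. Simulated data were used to test how overlaps are counted. The members, the other genes of the ligase systems and the settings were chosen with earlier results of these data known. All 9 members are named, and of the 28 other genes those with a peak of the highest 10% in both lists or with no peak of either; SIAH3, FBXW12, FBXW4 and FBXW9 were named after their values were seen. Primer sequences came from a supplement of the study. The tools were pandas 2.3.3, numpy 2.4.6, scipy 1.17.1 and matplotlib 3.10.9 under Python 3.11.15. Alternatives were other window sizes, score and width filters, merging of close peaks, removal of peaks inside other genes, and stricter overlap or end rules.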

Additional observations from a re-analysis of the deposited data

How the results depend on the processing

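When peaks below the median score were dropped, the windows of the 9 genes held 35 RUNX2 and 24 MTA1 peaks (59 and 52 with all peaks), and 83.3% of the MTA1 peaks were shared (63.5% with all). When each list was limited to its 10000 best-scoring peaks, 11 RUNX2 and 13 MTA1 peaks were left, of which 36.4% and 30.8% were shared, 2 genes had both lists at a gene end (6 with all peaks) and 4 had a pair (9 with all). These filters hold fewer peaks by construction. The other 40 recomputed values stayed within 1.5 times the count reported or within the interval of the share. The MTA1 share was 72.2% within gene bodies, 69.0% with 5 kb windows and 65.9% without the narrowest peaks. It was 55.8% where the overlap had to cover at least 50% of both peaks. The share of the whole list, 65.5% as reported, was not recomputed under these settings, so it cannot be set beside these values. Windows of 5 kb and 50 kb gave 48 and 84 RUNX2 peaks and 42 and 66 MTA1 peaks. Leaving out peaks inside another protein-coding gene left 53 and 46, and SKP2, whose only pair touches LMBRD2, then had 0 peaks of either list. No paired analysis was possible because each antibody has 1 library, and none could be left out. Depth is unknown, so absent peaks cannot be told apart from weak ones.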
